A study of Sorghum bicolor with 177 samples.

Results

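Glutathione S-transferases (GSTs) were followed in Sorghum bicolor BTx623, the cultivar of the sorghum reference genome, in its roots and young leaves under shortage and surplus of iron and zinc. A gene was counted as a member where its sorghum description, or the description of its closest Arabidopsis or rice gene in the deposited annotation, contained the words glutathione S-transferase. That text match found 147 of 34129 genes. By the symbol of the closest Arabidopsis gene, 57 were of the tau class (GSTU) and 20 of the phi class (GSTF). The smaller classes held 4 zeta genes (GSTZ), 3 dehydroascorbate reductases (DHAR), 3 lambda genes (GSTL), 2 theta genes (GSTT), 2 microsomal genes (MAPEG), 1 elongation factor 1B gamma gene (EF1B), 1 TCHQD gene and 7 genes of no named class. The remaining 47 matches were described in rice as transposon proteins of the Pong group (36) or DNA binding proteins (11). They are kept apart here, whatever their symbol, because these descriptions point away from a GST. Some of the 47, such as Sobic.002G167800, Sobic.004G044900 and Sobic.005G160300, nevertheless have the theta gene GSTT3 as closest Arabidopsis gene. They are not counted as theta. Gene names ending in "-like" below give the closest Arabidopsis gene.

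GSTs join the tripeptide glutathione to reactive, electrophilic compounds, and the conjugates can then be moved into the vacuole by transporters of the ABCC type. The tau and phi classes are found in plants, are known for the detoxification of herbicides, and are widely induced by stress. Dehydroascorbate reductases use glutathione to regenerate ascorbate, zeta GSTs act in tyrosine breakdown, and lambda GSTs bind or reduce rather than conjugate many substrates. MAPEG proteins are membrane-bound enzymes with the same activity but a separate origin, and the gamma subunit of elongation factor 1B carries a GST-like domain within the translation machinery. Glutathione is also the building block of phytochelatins, the peptides with which plants bind surplus metal.

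Plants grew in nutrient solution and were moved to their treatment as acclimated seedlings. Zinc excess plants received 100 µM ZnSO4, iron excess plants 1000 µM NaFeEDTA, zinc limitation plants no zinc and iron limitation plants no iron, while control plants received 1 µM ZnSO4 and 50 µM NaFeEDTA. All groups were untransformed BTx623. Roots were taken at 0 h (before treatment), 1 h and 2, 4, 7, 14 and 21 d, and discs of the young leaf of the same plants at these times other than 1 h. In all, 94 root and 83 leaf libraries (177 together) were made from 80 plants, and the deposited table holds the authors' mean TPM (a level scaled for transcript length and for the total of each library) for 57 combinations of tissue, time and treatment (31 root, 26 leaf). Since only means were given, no spread between plants could be computed, and the sampling time served as the replicate in every test (6 times in root, 5 in leaf). P-values therefore measure the spread between times, not between plants. The read depth cannot be recovered from TPM, and counting intervals are therefore left out.

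The tissues matched their labels on the leaf side: the summed level of each of the leaf markers RBCS, LHCB1, LHCB2, PSBO and PSAD was at least 1199 TPM in every leaf mean and at most 42 TPM in every root mean. The root markers were less separate, with summed RHD levels of 113.9 to 252.8 TPM in root and 61.6 to 169.4 TPM in leaf. Summed NRT2 levels were 1.73 to 90.4 TPM in root and 0.028 to 51.5 TPM in leaf. Those of PHT1 were 83.2 to 417 TPM in root and 14.3 to 151 TPM in leaf. No gene matched CASP or CA1. The root means held 18606 to 20758 genes at 1 TPM or more and the leaf means 15533 to 17977. Control roots at 2 and 4 d stood apart from those at 0 h, with 29.6 and 24 percent of genes at least 2-fold lower, and for the members with at least 5 TPM these shares were 23 of 61 at 2 d and 14 of 65 at 4 d. A mean of at least 1 TPM over the columns of a tissue was needed for a test, and 88 members passed in root (41 tau, 16 phi, 8 of transposon or DNA-binding description) and 59 in leaf (20 tau, 11 phi, 6 of transposon or DNA-binding description). Another 57 members stayed below that mean in both tissues, and 28 were listed at 0 in every root mean. In bulk tissue, fewer cells of a type and less RNA per cell cannot be told apart.

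A handful of members made up most of the family's transcripts in each tissue. In root the 5 most abundant members took 64.05 percent of the summed TPM of all 147, and in leaf 51.23 percent. The root was led by the GSTF13-like phi gene Sobic.003G305700, with a mean of 1197 TPM over all root columns (761 to 2248 TPM), followed by the EF1B gamma gene Sobic.002G406500 with 814 TPM (562 to 1046 TPM). The phi genes Sobic.001G012500 (mean 640.4 TPM) and Sobic.003G416300 (569 TPM) and the MAPEG gene Sobic.001G119400 (187 TPM) came next. The leaf was led by a tau gene that the root hardly used, the GSTU17-like Sobic.003G187000, with a mean of 506 TPM in leaf and 2.29 TPM in root. It was followed in leaf by Sobic.003G305700 (466 TPM), the GSTU15-like Sobic.001G317400 (308 TPM), the GSTU25-like Sobic.001G065800 (268 TPM) and Sobic.001G012500 (249.9 TPM). The most abundant lambda gene was Sobic.001G412800 (239 TPM in leaf), and the most abundant dehydroascorbate reductase was the DHAR2-like Sobic.009G017800 (229 TPM in leaf, 89.2 TPM in root). Zeta was led by Sobic.008G074400 (42.6 TPM in root), theta by Sobic.001G000700 (16.9 TPM in root), and the single TCHQD gene, Sobic.006G085100, averaged 2.51 TPM in leaf.

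Zinc excess raised GST transcripts in root, above all those of the tau class. The summed TPM of the 57 tau genes was 636, 2764, 1174, 1362, 4961 and 1825 in zinc excess roots at 1 h, 2, 4, 7, 14 and 21 d, and 609, 391.9, 752, 480, 686 and 552 in control roots at those times. At 1 h the sums lay close together, and at each later time the zinc excess root was higher. The summed phi TPM changed less, with 2832, 4808, 3527, 3258, 4366 and 2574 in zinc excess roots and 3104, 3034, 1928, 2237, 3330 and 3056 in control roots, lower under zinc excess at 1 h and 21 d. Over the whole family the sums ran between 5068 and 11008 TPM in zinc excess roots and between 4350 and 5610 TPM in control roots.

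The test across all genes (limma on log2 of mean TPM + 1, Benjamini-Hochberg adjusted p under 0.05) called 24 of the 88 tested members higher and 0 lower in zinc excess roots, where the background over all 20481 genes was 1.21 percent called higher and 0.176 percent called lower. At an unadjusted p under 0.05 there were 45 members. The median log2 difference of the 88 was 0.38, against 0.02 over all genes tested. Among the 248 genes called higher under zinc excess, 9.68 percent were members. By class, 19 of 41 tau genes rose, with a class median of 1.23, and 3 of 16 phi genes rose, with a class median of 0.28. In addition 1 of 4 zeta genes and 1 of 2 MAPEG genes rose, and no lambda, theta, DHAR, EF1B, TCHQD, unclassed or transposon-described gene was called. Of the 24 called members, 3 tau genes (Sobic.001G319600, Sobic.001G319700 and Sobic.003G425850) reached the 1 TPM filter only through the zinc excess columns and so had to differ. Without them 21 of 85 were called. The zinc excess root mean at 14 d rests on 2 libraries. For the zinc excess means at 2 and 7 d, the steps between values point to 3 and 4 libraries, where the labels list 2 and 5, and 2 plants are labelled at both of these times. Of the root plants, 15 were sampled at both 1 h and 21 d, so these times are not independent in any root comparison.

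The largest rise was that of the GSTU25-like tau gene Sobic.002G361100. It had 6.28, 451, 78.4, 103, 1704 and 120.0 TPM in zinc excess roots at 1 h, 2, 4, 7, 14 and 21 d, and 2.24, 2.54, 7.59, 2.69, 7.68 and 5.21 TPM in control roots. The zinc excess root was higher at all 6 times, by far at 2 and 14 d, and only its 1 h value fell within the range of the controls. The fitted log2 difference was 4.68 ± 0.66 (SE; adjusted p = 0.0005325, limma). It was also the only called member with a difference of at least 1 log2 unit at 1 h (1.17).

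The second was a phi gene, the GSTF13-like Sobic.003G164800. Its levels were 4.92, 529, 142, 128, 690.2 and 83.0 TPM in zinc excess roots and 5.04, 9.02, 21.8, 3.26, 16.2 and 5.73 TPM in control roots, a log2 difference of 3.71 ± 0.54 (adjusted p = 0.0006853, limma). The groups were level at 1 h and did not overlap from 2 d on. This gene shares its Arabidopsis name with Sobic.003G305700, the most abundant member in root, which did not pass the test: its lowest, median and highest levels were 852, 1371 and 1521 TPM in zinc excess roots and 1098, 1220.4 and 2248 TPM in control roots.

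On chromosome 1, 3 tau genes had identifiers from Sobic.001G065800 to Sobic.001G066000, and 2 of them were called. The GSTU25-like Sobic.001G065900 had 0.3, 80.3, 10.6, 17.7, 164 and 16.1 TPM in zinc excess roots and 0.0897, 0.506, 3.09, 0.698, 0.234 and 0.619 TPM in control roots (log2 difference 3.57 ± 0.60, adjusted p = 0.001943, limma). Over the 24 columns of the other solutions its mean was 1.01 TPM, just inside the filter. At every time but 1 h its zinc excess value lay above the highest control value. The GSTU28-like Sobic.001G066000 was called as well, with 8.87, 40.04 and 96.3 TPM as the lowest, median and highest of the zinc excess roots and 5.04, 7.36 and 29.5 TPM of the control roots (1.84 ± 0.35, adjusted p = 0.006409). Its control values at 2 and 4 d, 18.9 and 29.5 TPM, lay inside the zinc excess range. The third gene, Sobic.001G065800, stood at 37.6, 127 and 287 TPM in zinc excess roots and 29.2, 52.2 and 92.1 TPM in control roots and did not pass (1.18 ± 0.34, adjusted p = 0.09129).

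On chromosome 3, 9 tau genes had identifiers from Sobic.003G425701 to Sobic.003G426600, and 5 of the 7 that could be tested rose. The GSTU8-like Sobic.003G426000 had 9.44, 274, 54.2, 57.8, 340.3 and 40.1 TPM in zinc excess roots and 9.44, 6.15, 7.12, 4.94, 13 and 11.6 TPM in control roots (2.94 ± 0.52, adjusted p = 0.003282, limma). Its neighbour Sobic.003G425850 had 0.106, 11.3 and 38.1 TPM (lowest, median, highest) in zinc excess roots and was nearly silent in control roots, at 0, 0.0983 and 1.41 TPM (2.87 ± 0.47), but it passed the filter only through zinc excess. The groups of these genes overlapped through the 1 h value. The GSTU7-like Sobic.003G426300 had 8.96, 29.6, 11.2, 9.27, 75.9 and 9.8 TPM in zinc excess roots and 5.54, 0.389, 1.61, 0.489, 5.55 and 2.53 TPM in control roots (2.54 ± 0.47, adjusted p = 0.0055). Sobic.003G426400 had 54.5, 103 and 184 TPM as lowest, median and highest in zinc excess roots and 19.5, 38 and 43.2 TPM in control roots (1.66 ± 0.29, adjusted p = 0.002834). In these last genes every zinc excess value lay above every control value.

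The GSTU17-like Sobic.001G317000 was already well expressed in control roots. It had 135, 408, 141, 185, 722 and 254 TPM in zinc excess roots and 103, 13.4, 51.1, 39.8, 68.9 and 90.4 TPM in control roots (2.28 ± 0.43, adjusted p = 0.005556, limma). With Sobic.003G426300, Sobic.003G426400 and Sobic.003G264600 it formed the 4 called members whose zinc excess values were all above all control values. Over all genes tested that share was 0.386 percent. Sobic.003G264600 had 17.5, 21.1 and 46.6 TPM as its lowest, median and highest in zinc excess roots and 5.89, 10.6 and 15.8 TPM in control roots (1.19 ± 0.22, adjusted p = 0.005601). Sobic.001G319500, named after the same Arabidopsis gene as Sobic.001G317000, had 8.37, 384, 110.0, 126, 393 and 116 TPM in zinc excess roots and 7.6, 13.9, 79.2, 7.84, 13.3 and 11.4 TPM in control roots (2.86 ± 0.58, adjusted p = 0.009946). Its zinc excess value at 1 h lay among the controls, and all later ones lay above them.

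Outside the runs of neighbours, the tau gene Sobic.005G212700 had a median of 8.55 TPM and a highest value of 24.0 TPM in zinc excess roots, against a median of 0.121 TPM and a highest value of 1.54 TPM in control roots, and was listed at 0 in zinc excess roots at 1 h (2.75 ± 0.48, adjusted p = 0.002835, limma). The zeta gene that rose was the GSTZ2-like Sobic.008G074400, with 29.7, 103, 94.1, 74.0, 75.2 and 83.4 TPM in zinc excess roots and 33.1, 20.8, 32.5, 28.1, 33.1 and 44 TPM in control roots (1.17 ± 0.21, adjusted p = 0.004214). It was lower than control at 1 h and higher from 2 d on. The MAPEG gene that rose, Sobic.001G119500, is a low one, with 1.07, 3.76 and 8.33 TPM (lowest, median, highest) in zinc excess roots and 0.246, 0.891 and 1.53 TPM in control roots (1.41 ± 0.23, adjusted p = 0.001302). Its abundant neighbour Sobic.001G119400 stood at 136, 263 and 314 TPM in zinc excess roots and 101, 149 and 249 TPM in control roots and did not pass (0.58 ± 0.21, adjusted p = 0.1939). The phi gene Sobic.009G043600 had 29.3, 144 and 336 TPM in zinc excess roots and 31.5, 41.2 and 73.9 TPM in control roots (1.59 ± 0.30, adjusted p = 0.005517), and its neighbour Sobic.009G043700 had a difference of 1.49 ± 0.29 (adjusted p = 0.006999). The remaining 8 called members, all tau, lay between 0.95 and 1.74. The highest of them, Sobic.001G318300, had 1.33, 18 and 62.7 TPM in zinc excess roots and 2.36, 3.62 and 5.26 TPM in control roots (1.74 ± 0.39, adjusted p = 0.0204), lower than control at 1 h and higher at every later time.

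**Figure D1:**
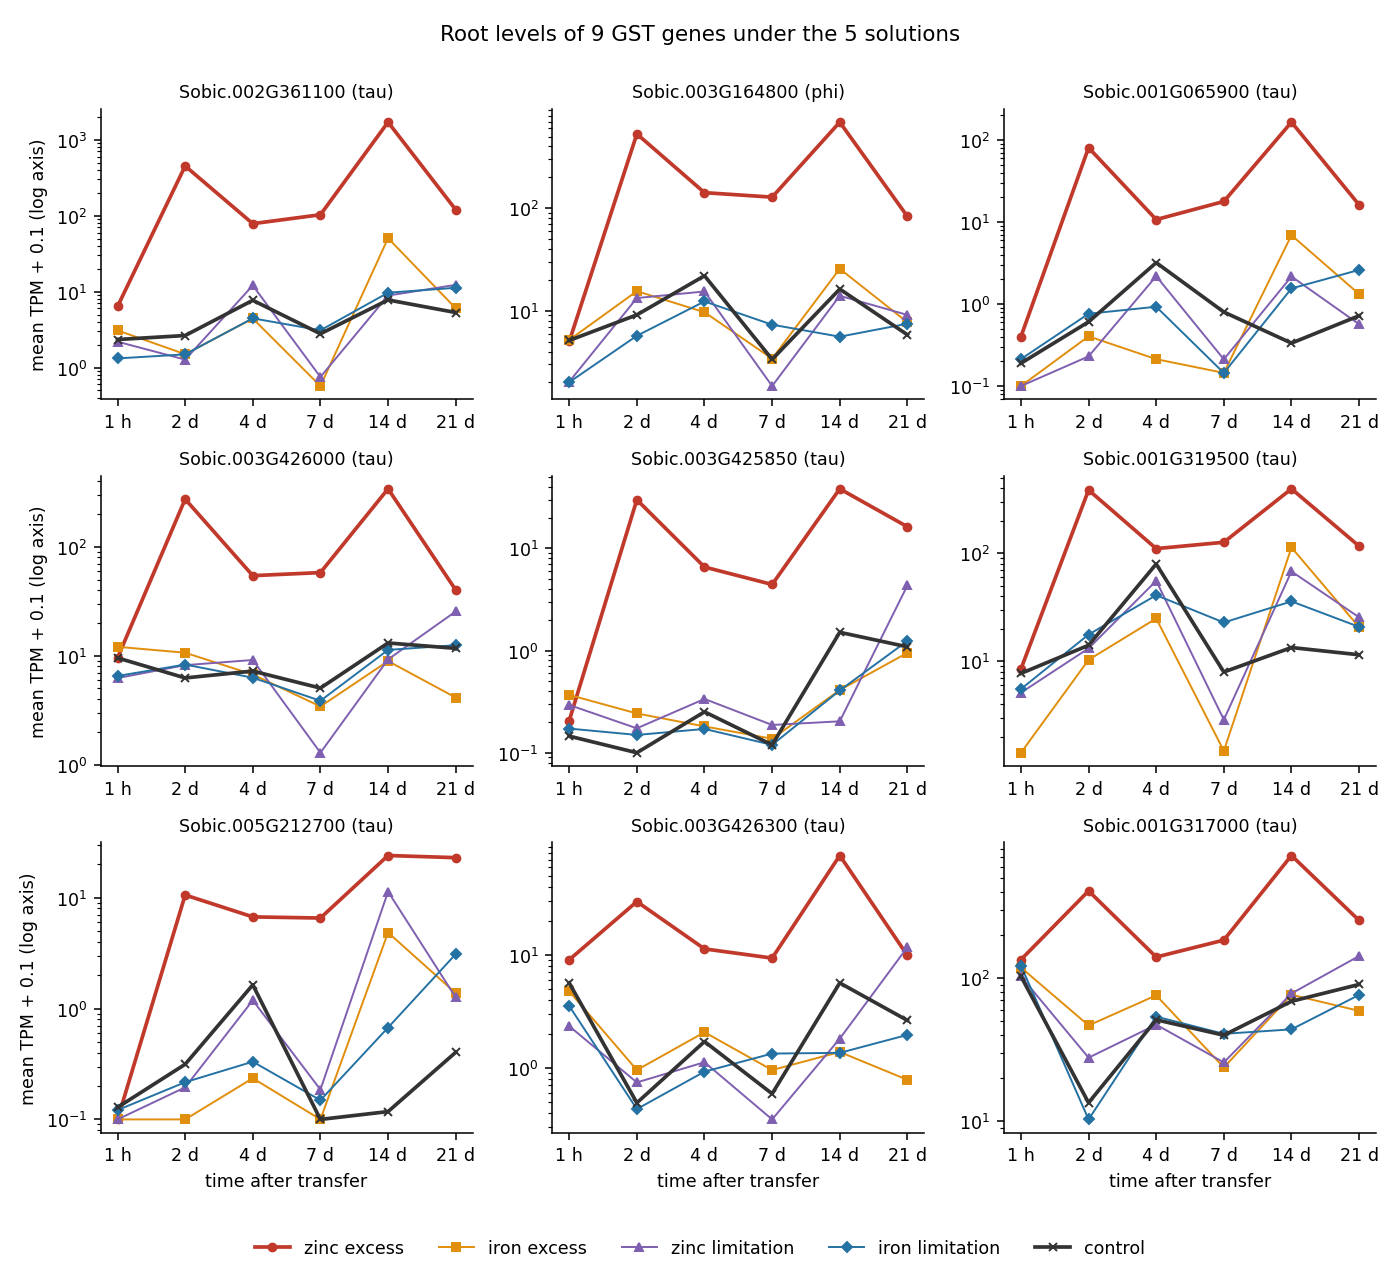
Mean TPM + 0.1 (log axis) of 9 members in root at 1 h, 2, 4, 7, 14 and 21 d, with 1 line for each of the 4 treatments and for the control. The zinc excess line leaves the others at 2 d in every panel and is highest at 14 d, as in Sobic.002G361100 with 1704 TPM under zinc excess and 7.68 TPM in the control.

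Abundant members did not pass. The values of Sobic.003G305700 are given above. Sobic.003G416300 had 581, 679 and 942 TPM as lowest, median and highest in zinc excess roots and 224, 544 and 808 TPM in control roots (0.68 ± 0.25, adjusted p = 0.183, limma). Sobic.001G012500 had 508, 727 and 1324 TPM in zinc excess roots and 336, 521 and 959 TPM in control roots (0.57 ± 0.27, adjusted p = 0.3463). Their groups overlapped widely. The EF1B gamma gene Sobic.002G406500, whose product serves translation, had 631, 787 and 877 TPM in zinc excess roots and 669, 801 and 920.1 TPM in control roots. The DHAR2-like Sobic.009G017800 had 74.0, 115 and 141 TPM in zinc excess roots and 61.3, 83.0 and 109 TPM in control roots (0.38 ± 0.14, adjusted p = 0.2159).

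The rise took time. At 1 h, 1 of 60 members with at least 5 TPM in the higher mean was at least 2-fold higher in zinc excess roots (1.67 percent), against 1.58 percent of all genes. At 2 d the share was 40 of 68 members (58.8 percent, against 23.5 percent of all genes) and at 4 d 26 of 69 (37.7 percent, against 13). At 7, 14 and 21 d it was 28 of 68 (41.2 percent, against 4.21), 35 of 72 (48.6 percent, against 5.19) and 34 of 73 (46.6 percent, against 8.27). Of the tau genes with at least 5 TPM in the higher mean, 26 of 32 were 2-fold higher at 2 d and 16 of 32 at 4 d. At 7, 14 and 21 d these shares were 23 of 32, 27 of 35 and 29 of 36. At 2 d the cut admitted only 19, 22 and 23 tau genes under iron limitation, iron excess and zinc limitation. It admitted 24, 26 and 24 at 4 d, 20, 19 and 19 at 7 d, and 26, 28 and 30 at 14 d. At 21 d it admitted 26 under each of these. Part of the tau genes and members counted under zinc excess from 2 d on thus entered through their zinc excess values. Of the phi genes, 9 of 13 were 2-fold higher at 2 d, 8 of 14 at 4 d, and 3, 4 and 3 of 14 at 7, 14 and 21 d. At 2 d phi genes were also 2-fold higher in 7 of 13 cases under iron excess, 6 of 12 under zinc limitation and 2 of 11 under iron limitation. For tau genes these were 8 of 22, 7 of 23 and 3 of 19. In control roots 7 of 14 phi genes were 2-fold lower at 2 d, and likewise at 4 d, than at 0 h. Tau genes there were 2-fold lower in 12 of 23 cases at 2 d and 5 of 27 at 4 d, and 2-fold higher in 5 and 8. The classes were not tested against each other. At 21 d, 5 of 14 phi genes were at least 2-fold lower in zinc excess roots, where 13.2 percent of all genes were lower. These single times have no test. Among the 24 called members, the largest log2 difference fell at 2 d for 13, at 14 d for 7 and at 21 d for 4, and 13 were higher at every one of the 6 times. The highest TPM fell at 14 d for 17 of them.

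In the 3 late times together (7, 14 and 21 d), 19 members were called higher and 0 lower (0.728 percent of all genes were called higher and 0.0244 percent lower), and 16 of these were also called over all times. The 19 include Sobic.003G425850, which reached the 1 TPM filter only through the zinc excess columns. Sobic.002G361100 had a late difference of 5.57 ± 0.95 (adjusted p = 0.008677, limma) and Sobic.003G164800 one of 4.63 ± 0.76 (adjusted p = 0.006456). The tau genes Sobic.001G317200, GSTU18-like, and Sobic.003G264500 were called in the late times (2.50 ± 0.45, adjusted p = 0.01216, and 2.31 ± 0.49, adjusted p = 0.03074) but not over all times. Sobic.001G317200 had 2.41, 22.1 and 9.8 TPM in zinc excess roots at 7, 14 and 21 d and 0.169, 1.16 and 0.865 TPM in control roots, so all late values were higher. Sobic.003G264500 had 33.1, 54.1 and 71.7 TPM in zinc excess roots and 6.84, 10.2 and 11.9 TPM in control roots at these times, but at 4 d the order was turned, with 52.4 TPM in zinc excess roots and 70.3 TPM in control roots. Of the 88 members, 35 had all late zinc excess values above all late control values (5.55 percent of all genes) and 2 had them all below (5.88 percent). The 88 include Sobic.001G319600, Sobic.001G319700 and Sobic.003G425850, which reached the filter only through the zinc excess columns. The 35 were not counted again without these. The difference between the late and the early effect was called for 0 members by limma (21 at an unadjusted p under 0.05).

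The number of calls depended on which columns entered the fit. The 24 were picked as higher in these same columns, so their unchanged direction in the refits is no separate evidence. Without 2 d 10 members were called, without 14 d 13, without 1 h 28 and without 21 d 19. With 2 d and 4 d left out, when the controls stood apart, all 24 differences stayed positive (0.82 to 4.47, median 1.68) but only that of Sobic.002G361100 passed (adjusted p = 0.04695, limma). Fitted on zinc excess and control columns alone, 0 passed, with adjusted p between 0.1285 and 0.3535 and all 24 at an unadjusted p under 0.05.

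No member passed the test under the other treatments in root. Against the same control columns, limma called 0 members under iron limitation, iron excess or zinc limitation (1, 3 and 8 at an unadjusted p under 0.05), where 0, 0 and 0.00977 percent of all genes were called higher and 0 percent lower in each. All these comparisons share the control roots with that of zinc excess. The 24 genes raised by zinc excess had differences of −0.43 to 0.42 under iron limitation (median −0.09), −0.34 to 0.66 under iron excess (median 0.07) and −0.51 to 0.66 under zinc limitation (median 0.06). Sobic.002G361100, for example, had 2.99, 1.4, 4.33, 0.472, 50.5 and 5.94 TPM in iron excess roots, with a single high value at 14 d. Single times, which have no test, showed tau genes 2-fold higher or lower under other solutions too. These counts take genes with at least 5 TPM in the higher mean. At 21 d under zinc limitation 13 of 26 tau genes and 16 of 63 members were higher, against 5.98 percent of all genes. At 14 d under iron excess 7 of 28 tau genes were higher, against 5.31 percent of all genes, and 3 were lower. At 7 d under zinc limitation 7 of 19 tau genes were lower and 0 higher, where 3.53 percent of all genes were lower. At 14 d under iron limitation 6 of 26 tau genes were lower, against 3.39 percent of all genes, and 3 were higher.

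**Figure D2:**
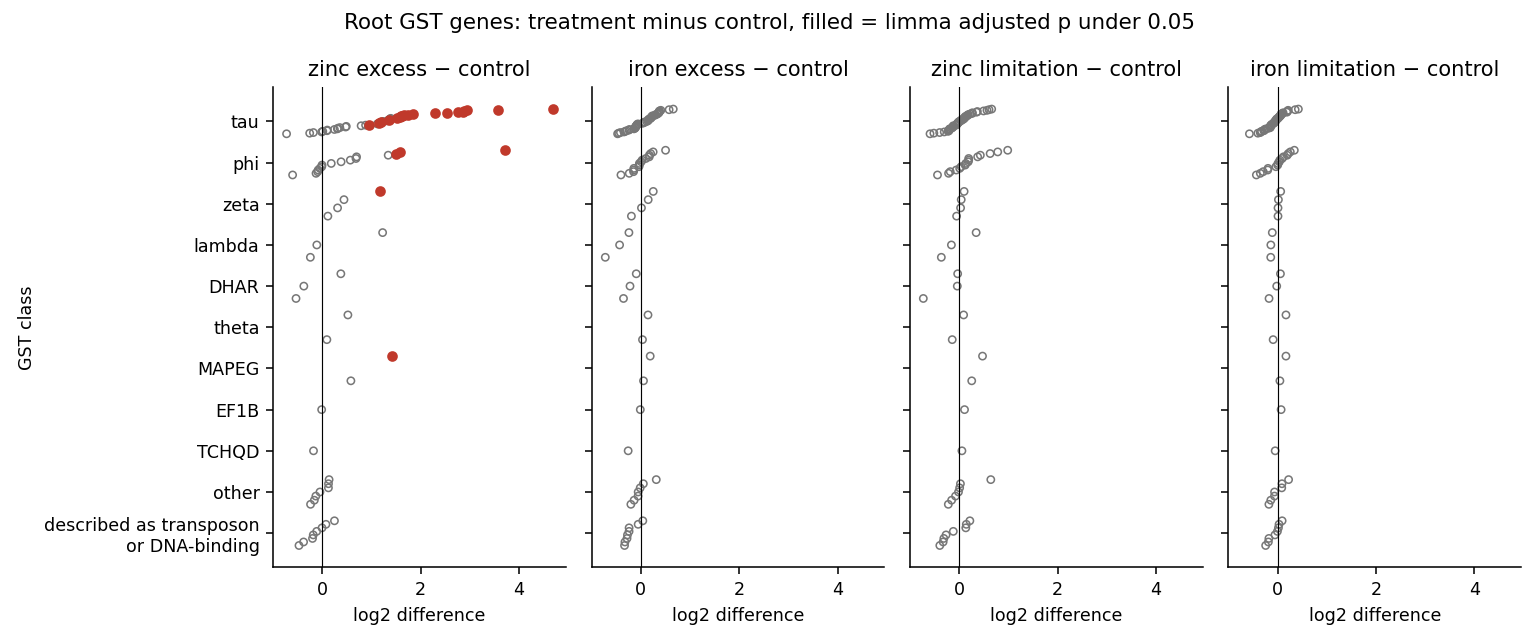
Log2 difference from control of each tested member in root (x axis, log2 of mean TPM + 1), by class down the page, with 1 panel for each treatment and filled points where the adjusted p is under 0.05. Filled points appear only under zinc excess, 19 of 41 tau and 3 of 16 phi among them, and reach 4.68. The tau genes Sobic.001G319600, Sobic.001G319700 and Sobic.003G425850 among them reached the filter only through the zinc excess columns.

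The largest differences that kept their direction at all times but at most 1 are given as values. Under iron excess, the lambda gene Sobic.002G421200, GSTL3-like, had 53.7, 84.4 and 117 TPM (lowest, median, highest) against 84.0, 142 and 233 TPM in control roots (−0.72 ± 0.22, adjusted p = 0.6528, limma). The tau genes Sobic.001G318300 (0.58 ± 0.39, adjusted p = 0.7119) and Sobic.001G065800 (−0.45 ± 0.34, adjusted p = 0.7393) came after it. Under zinc limitation these were neighbouring phi genes on chromosome 1: Sobic.001G514300 had 31.6, 57.2 and 107 TPM against 7.17, 41.2 and 77.9 TPM in control roots and was higher at all 6 times (0.99 ± 0.37, adjusted p = 0.7602). Sobic.001G514200 had 40.7, 54.4 and 101 TPM against 11.3, 41.5 and 79.4 TPM in control roots (0.78 ± 0.31, adjusted p = 0.7602). The unclassed Sobic.007G169100 had a difference of 0.64 ± 0.27 (adjusted p = 0.7602). Under iron limitation the values were small, with −0.28 ± 0.30 for Sobic.003G426500, −0.24 ± 0.23 for Sobic.007G022200 and −0.18 ± 0.22 for Sobic.003G264600, each at an adjusted p of 0.9999. No late effect and no difference between late and early effect was called for any member under these 3 treatments in root, where limma found between 1 and 16 members at an unadjusted p under 0.05. Of all genes, 0 percent were called in these late and late minus early comparisons, except for 0.395 percent with a lower late than early effect of iron excess.

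Zinc excess and iron excess were also set against each other directly. In zinc excess roots 21 members were higher and 0 lower than in iron excess roots (1.46 and 0.0391 percent of all genes), with 42 at an unadjusted p under 0.05 and a median difference of 0.39, against 0.08 over all genes. This comparison shares the zinc excess columns with the one against control, and 19 members were called in both. The 21 include Sobic.003G425850, which reached the 1 TPM filter only through the zinc excess columns. The differences from iron excess were 4.61 ± 0.66 for Sobic.002G361100 (adjusted p = 0.0005975, limma), 3.60 ± 0.54 for Sobic.003G164800 (adjusted p = 0.0007853) and 3.20 ± 0.58 for Sobic.001G319500 (adjusted p = 0.003802). Sobic.001G317200 (1.80 ± 0.40, adjusted p = 0.01617) and Sobic.001G065800 (1.63 ± 0.34, adjusted p = 0.01276) passed here but not against control. With 2 d and 4 d left out, 0 passed. In leaf, 0 members were called in this comparison by limma (8 at an unadjusted p under 0.05; 0.0234 percent of all genes were higher).

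In leaf, the treatment with called members was iron limitation, and the response was mixed in direction. Of the 59 tested members, 4 were called higher and 3 lower, where 6.79 percent of all genes were called higher and 1.87 percent lower, and 19 had an unadjusted p under 0.05. The median difference of the members was 0.19, against 0.24 over all genes. The split depended on scale: with each column rescaled so that its median log2 ratio was 0, which moved the median of all genes to 0.006, there were 2 members higher and 5 lower. With 7, 14 or 21 d left out, or with the iron limitation and control columns alone, 0 members passed.

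The 3 members that fell were a phi, a tau and an unclassed gene. The phi gene Sobic.008G079400 had 27.1, 25.8, 15.1, 17.9 and 18.2 TPM in iron limitation leaves at 2, 4, 7, 14 and 21 d and 47.4, 39.2, 63, 52.7 and 52.5 TPM in control leaves, with no overlap (−1.27 ± 0.23, adjusted p = 0.02282, limma). The unclassed Sobic.001G011600 had 94.2, 59.1, 25.4, 36.3 and 31.1 TPM in iron limitation leaves and 114, 88, 63.2, 97.0 and 102 TPM in control leaves (−1.04 ± 0.19, adjusted p = 0.02282). Sobic.003G187000, the most abundant member in leaf, had 474, 455, 191, 259.6 and 183 TPM in iron limitation leaves and 716, 631, 259, 651 and 781 TPM in control leaves (−0.98 ± 0.21, adjusted p = 0.025). All 3 were lower at every time, the last 2 with overlapping ranges, and the gap was widest at 14 and 21 d in Sobic.003G187000.

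Among the members that were higher, the phi gene Sobic.003G305700 had 443, 468, 1349, 888 and 654 TPM in iron limitation leaves and 321, 378, 360.1, 394 and 439 TPM in control leaves, again with no overlap (0.88 ± 0.25, adjusted p = 0.03971, limma). The GSTL3-like Sobic.001G412800 had 229, 214, 393, 374 and 349.7 TPM in iron limitation leaves and 165, 192, 157, 199 and 245 TPM in control leaves (0.67 ± 0.20, adjusted p = 0.04424). The DHAR2-like Sobic.009G017800, an enzyme of ascorbate recycling, had 208, 220.1, 279.6, 404 and 435 TPM in iron limitation leaves and 164, 194, 169.5, 201 and 275 TPM in control leaves (0.58 ± 0.15, adjusted p = 0.03289). Both were higher at every time, with ranges that overlapped those of the controls. After rescaling, Sobic.001G412800 (0.44, adjusted p = 0.06873) and Sobic.009G017800 (0.35, adjusted p = 0.07586) no longer passed. The phi gene Sobic.009G043600 was higher at every time but did not pass (1.0 ± 0.46, adjusted p = 0.1342). The fourth call, Sobic.005G160300, is GSTT3-like by its Arabidopsis symbol but described as a transposon or DNA-binding gene (0.66 ± 0.20, adjusted p = 0.04529).

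**Figure D3:**
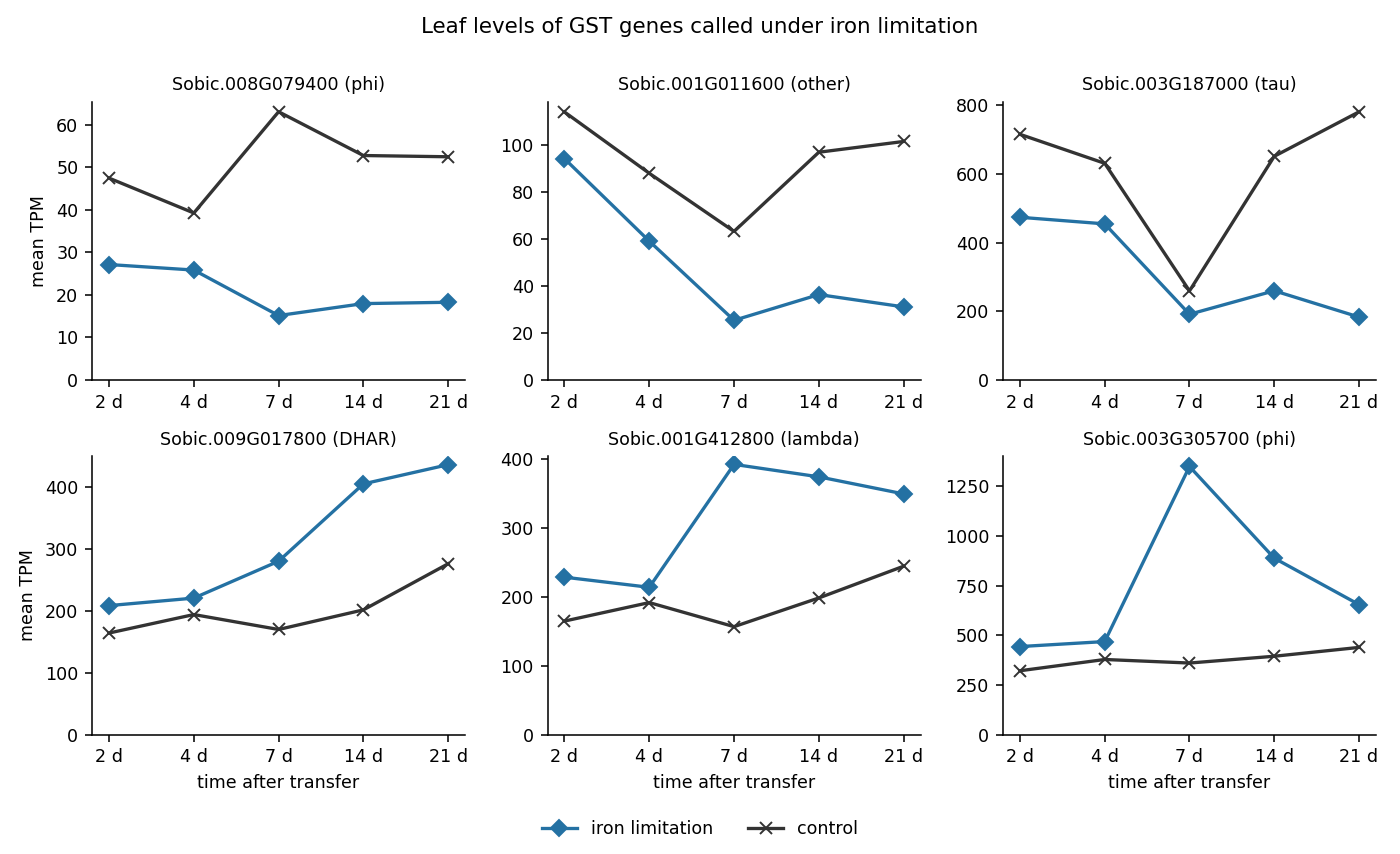
Mean TPM in leaf at 2, 4, 7, 14 and 21 d of the 6 called members outside the transposon group, with iron limitation and control as separate lines. The 3 lower genes are below the control at every time, and Sobic.003G305700 reaches 1349 TPM under iron limitation at 7 d, against 360.1 TPM in the control.

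At 7, 14 and 21 d, 20 members were called higher and 4 lower in iron limitation leaves, close to the 32.5 and 5.31 percent of all genes called. After rescaling the split was 6 higher and 9 lower. The largest late difference was that of Sobic.001G319500, which zinc excess raised in root. It had 26.7, 47.7 and 11 TPM in iron limitation leaves at 7, 14 and 21 d and 1.69, 5.26 and 5.41 TPM in control leaves (2.41 ± 0.68, adjusted p = 0.01321, limma), whereas at 2 and 4 d it had 1.14 and 1.33 TPM in iron limitation leaves and 1.3 and 3.31 TPM in control leaves. The GSTU15-like Sobic.001G317400 had 219, 297, 470.5, 684 and 945 TPM in iron limitation leaves at 2, 4, 7, 14 and 21 d and 230.3, 328, 308, 247 and 334 TPM in control leaves (late difference 1.19 ± 0.27, adjusted p = 0.003645). It was below control at 2 and 4 d and above it from 7 d on. The GSTU25-like Sobic.001G065800 was also higher in the late times (1.14 ± 0.27, adjusted p = 0.005001). Of the late falls outside those named above, the unclassed Sobic.007G169100 had 59.9, 85.7 and 130.0 TPM in iron limitation leaves and 157, 184 and 188 TPM in control leaves (−1.0 ± 0.19, adjusted p = 0.001278).

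The effect itself differed between the late and the early times for 3 of the 59 tested members. Of all genes, 2.98 percent were called with a higher and 0.544 percent with a lower late effect, so these few calls do not set the members apart. The tau gene Sobic.003G187100 had 2.61, 3.1, 9.32, 7.88 and 14.1 TPM in iron limitation leaves and 3.88, 5.08, 4.68, 5.63 and 4.99 TPM in control leaves, lower at 2 and 4 d and higher afterwards (late minus early 1.37 ± 0.32, adjusted p = 0.02778, limma). Sobic.008G068800, of transposon or DNA-binding description, had a late minus early value of 1.39 ± 0.33 (adjusted p = 0.03138), and Sobic.001G011600 one of −1.03 ± 0.27 (adjusted p = 0.04558).

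Iron excess, zinc limitation and zinc excess left the leaf members without a call by limma (2, 2 and 3 at an unadjusted p under 0.05), where 0, 0 and 0.0293 percent of all genes were called higher. Under iron excess the largest differences with 1 direction at all times but at most 1 were 0.47 ± 0.21 for Sobic.001G318432 and 0.39 ± 0.28 for Sobic.004G044900, both of transposon or DNA-binding description, and −0.43 ± 0.18 for the MAPEG gene Sobic.001G119400 (adjusted p = 0.9993 for each). Under zinc excess the phi gene Sobic.008G079300 stood at 0.71 ± 0.31 (adjusted p = 0.4026), and Sobic.008G068800 and Sobic.004G044900, of transposon or DNA-binding description, both at 0.38. Under zinc limitation the tau gene Sobic.001G318200 stood at 0.86 ± 0.71 (adjusted p = 0.9999) with means of 19.7 TPM against 0.568 TPM in control leaves, but it was higher at 1 of 5 times and lower at 4. The phi gene Sobic.008G079400 stood at −0.58 ± 0.23 and the lambda gene Sobic.001G412800 at 0.34 ± 0.20 (adjusted p = 0.9999 for both). In the late times, and in late minus early, limma again called 0 members under these 3 treatments (0 to 4 at an unadjusted p under 0.05), where at most 0.0117 percent of all genes were called. At 21 d alone, 13 of 52 members were at least 2-fold higher in zinc excess leaves (25 percent, against 15.5 percent of all genes). In zinc limitation leaves 19 of 57 members were (33.3 percent, against 14.4), 14 of 20 tau genes among them. These shares have no test. They take genes with at least 5 TPM in the higher mean, so genes can enter through the treated leaves. At 21 d this cut admitted 20 tau genes under zinc limitation, 15 under zinc excess, 13 under iron limitation and 11 under iron excess. Of the 24 members raised by zinc excess in root, 11 could be tested in leaf, and their zinc excess differences there were −0.01 to 0.41.

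Whether the zinc excess effect differed between the tissues was tested on the root minus leaf difference over the 5 shared times, for the 57 members with at least 1 TPM in both. It was called higher in root for 3 tau genes and lower for 0 members, where 0.2 percent of all genes were higher and 0.0322 percent lower. The values were 2.94 ± 0.51 for Sobic.003G426300 (adjusted p = 0.01006, limma), 2.50 ± 0.45 for Sobic.001G317000 (adjusted p = 0.01469) and 1.93 ± 0.33 for Sobic.003G426400 (adjusted p = 0.01042). Sobic.001G317000 had 21.8, 23.3, 27.5, 20.5 and 77.9 TPM in zinc excess leaves at 2, 4, 7, 14 and 21 d and 19.6, 20.3, 21.8, 35.8 and 40.3 TPM in control leaves, higher at 2, 4, 7 and 21 d and lower at 14 d. Sobic.003G426300 did not exceed 4.97 TPM in zinc excess leaves or 2.6 TPM in control leaves. With 2 d left out, 0 members passed. For iron limitation, iron excess and zinc limitation the effect was called different between the tissues for 0 members by limma (9, 2 and 3 at an unadjusted p under 0.05), where 0.00644 percent of all genes were called higher and 0.0258 percent lower for iron limitation and 0 percent for the others.

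Root and leaf of control plants were compared next, and the shares of members higher in each tissue were near those of all genes. Over the 6 shared times, 49 of 80 tested members were higher in root and 15 higher in leaf, against 65.3 and 17.6 percent of all genes, with a median root minus leaf difference of 1.31 against 1.13 over all genes. Most genes at this filter stood higher in root on the TPM scale, and after rescaling to a median log2 ratio of 0 the split of the members was 35 higher in root and 31 higher in leaf. Without rescaling, root was higher in 26 of 35 tau and 12 of 16 phi genes and leaf in 5 tau and 2 phi genes, whereas among unclassed members leaf was higher in 5 of 7. For 40 members every root value lay above every leaf value, and for 13 every root value lay below, against 50.7 and 13.4 percent of all genes.

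The leaf side was led by a few abundant genes. Sobic.003G187000 averaged 1.86 TPM in control root and 588 TPM in control leaf (−7.76 ± 0.34, adjusted p = 1.309e-07, limma), and the lambda gene Sobic.001G412800 averaged 1.21 TPM in root and 182 TPM in leaf (−6.44 ± 0.20, adjusted p = 1.947e-08). Sobic.001G317400 averaged 4.36 TPM in root and 290.5 TPM in leaf (−5.93 ± 0.29). In each of these the highest root value, 7.22 TPM in Sobic.001G317400, was far below the lowest leaf value. On the root side, the phi gene Sobic.001G514400 averaged 73.5 TPM in root and 0.112 TPM in leaf (6.00 ± 0.24, adjusted p = 8.299e-08), and the tau gene Sobic.009G137500 averaged 41.7 TPM in root and 0.0835 TPM in leaf (5.21 ± 0.29). The abundant phi gene Sobic.003G305700 was used in both tissues, with 1358 TPM in root and 360.1 TPM in leaf (1.87 ± 0.24), as was Sobic.001G012500 (1.19 ± 0.25), whose tissues overlapped.

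**Figure D4:**
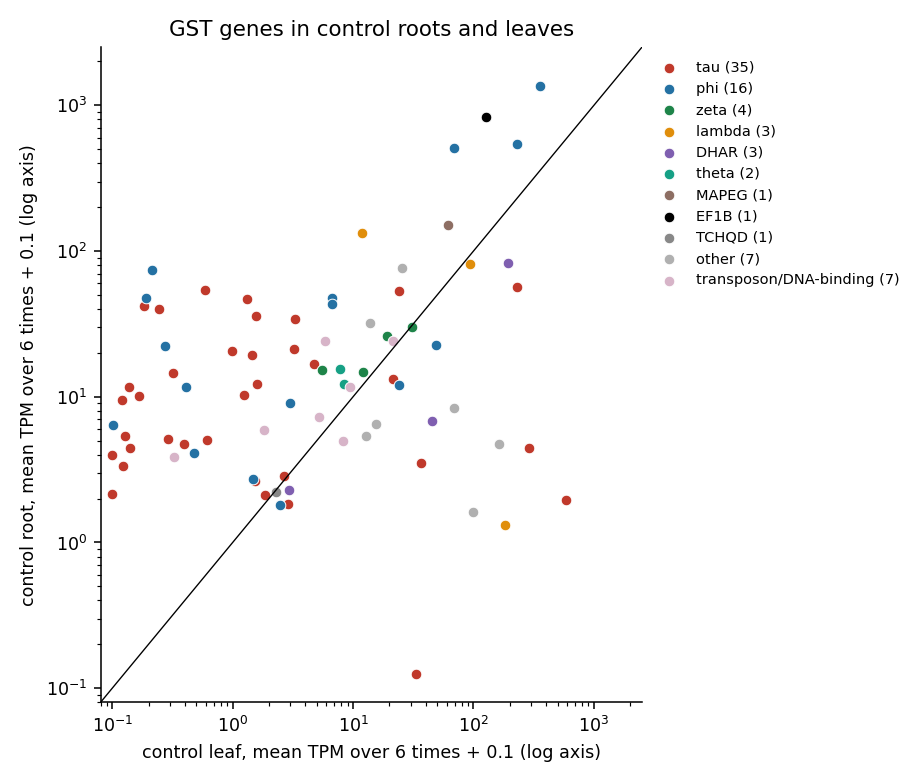
Mean TPM + 0.1 over the 6 control times in leaf (x axis) and root (y axis), both on log axes, for the 80 members tested, coloured by class. Points off the diagonal are tissue-biased, such as Sobic.003G187000 with 1.86 TPM in root and 588 TPM in leaf.

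Neighbouring genes of the tau class had different tissue levels and different zinc excess values. On chromosome 1 the identifiers from Sobic.001G317000 to Sobic.001G319700 hold 24 tau genes, taken as a run because successive numbers are at most 500 apart. Of these, 18 were tested in root, and 7 were called higher under zinc excess, with differences from −0.26 to 2.86 and a median of 1.20. The 7 include Sobic.001G319600 and Sobic.001G319700, which reached the 1 TPM filter only through the zinc excess columns. Of the 15 tested between tissues, 10 were higher in root and 3 higher in leaf. The leaf group holds Sobic.001G317400 and Sobic.001G317800, the second with 0.0254 TPM in control root and 33.5 TPM in control leaf (−4.89 ± 0.29, adjusted p = 8.122e-07, limma). Close by, Sobic.001G318700 averaged 39.7 TPM in control root and 0.144 TPM in control leaf (5.07 ± 0.27, adjusted p = 3.925e-07), with a zinc excess difference in root of 0.49 ± 0.38 (adjusted p = 0.6068). Sobic.001G317000 combined a control root level of 13.4 to 103 TPM with a zinc excess rise.

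The shorter runs differed as well. Besides the 9 tau genes near Sobic.003G426000, the 3 tau genes from Sobic.003G264400 to Sobic.003G264600 had 2 called under zinc excess in root and a median difference of 1.37. The phi genes Sobic.001G514100 to Sobic.001G514400 had 0 of 4 called and a median of 0.15, and both tested phi genes of the run from Sobic.009G043600 to Sobic.009G044000 were called. How reads were divided among neighbouring copies is not given in the sources used here, and near-identical copies can share reads, so values of single genes within a run are uncertain.

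**Figure D5:**
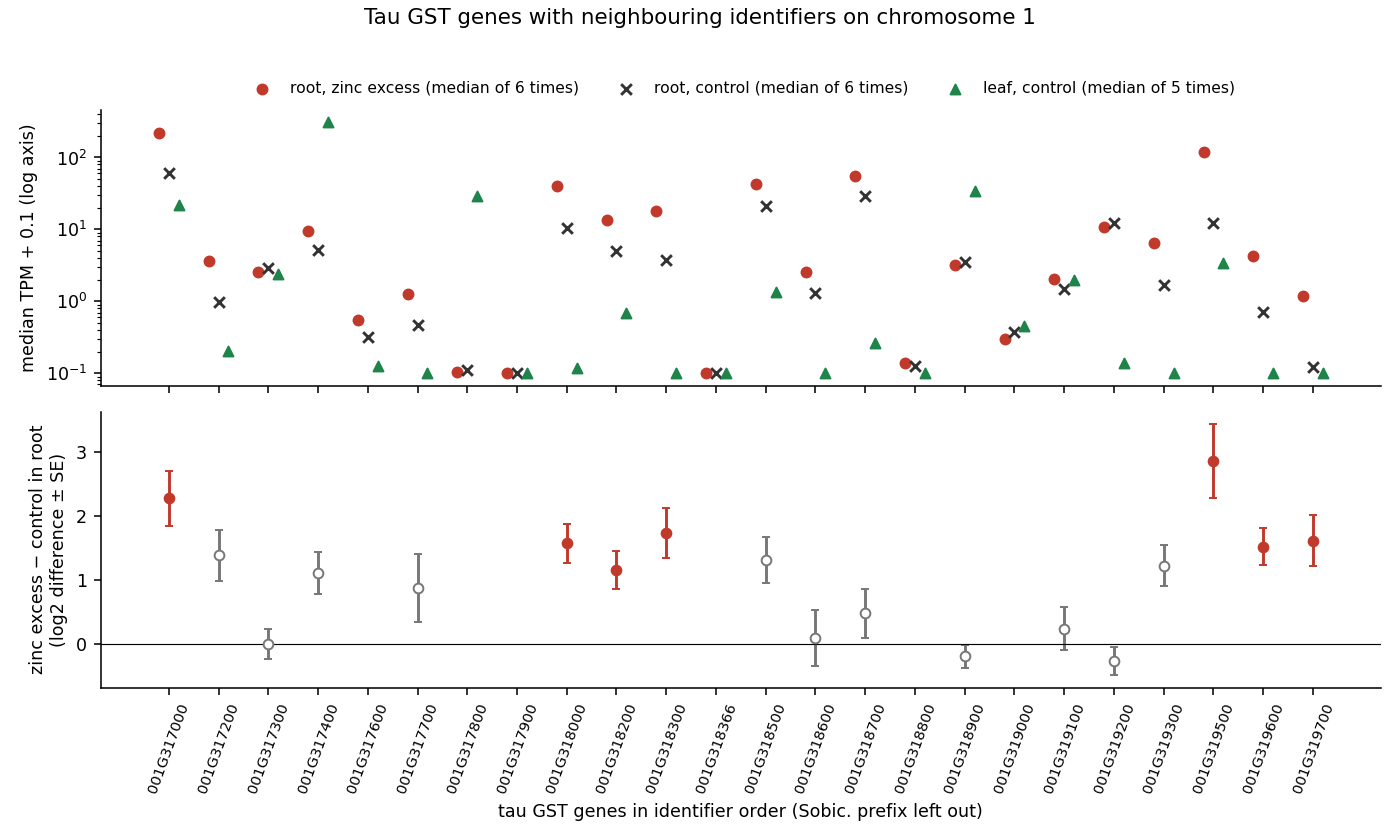
The 24 tau genes of the chromosome 1 run in identifier order, with median TPM in zinc excess root, control root and control leaf (log axis, 0.1 TPM added) and, beside it, the zinc excess minus control difference in root with its SE. Neighbours differ in tissue and in response, from −0.26 to 2.86. Sobic.001G319600 and Sobic.001G319700 reached the filter only through the zinc excess columns.

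Genes that make, recycle and transport glutathione were examined beside the family. Of 56 genes matched to glutathione synthesis, reduction, peroxidases, gamma-glutamyl transferases, glyoxalases, 5-oxoprolinase, phytochelatin synthase or ABCC transporters, 41 were tested in root, and zinc excess raised 4 and lowered 0 (1.21 and 0.176 percent of all genes). The glutamate-cysteine ligase gene Sobic.009G029600, GSH1-like, which encodes the first enzyme of glutathione synthesis, had 92.0, 203, 136, 134, 199 and 116 TPM in zinc excess roots and 90.5, 104, 91.7, 64.2, 83.3 and 75.6 TPM in control roots (0.74 ± 0.17, adjusted p = 0.02144, limma). The glutathione reductase gene Sobic.004G341200, GR1-like, had 65.2, 138, 135, 100.5, 198 and 116 TPM in zinc excess roots and 73.1, 78.8, 57.6, 51.8, 76.6 and 91.2 TPM in control roots (0.75 ± 0.18, adjusted p = 0.03004). Both were higher from 2 d on, and at 1 h the reductase gene was lower than control. The ABCC transporter genes Sobic.003G049500, MRP3-like (1.20 ± 0.27, adjusted p = 0.01831), and Sobic.003G160200, MRP10-like (1.06 ± 0.21, adjusted p = 0.008152), rose as well, and the phytochelatin synthase gene Sobic.003G024200 stood at 0.20 ± 0.14 (adjusted p = 0.5587). None of the 41 was called in root under the other 3 treatments. In iron limitation leaves 4 of 41 were higher and 2 lower, where 6.79 and 1.87 percent of all genes were called, among them the GLX1-like glyoxalase gene Sobic.007G069000 (1.87, adjusted p = 0.02687) and, lower, the glutathione peroxidase gene Sobic.010G067100, GPX1-like (−0.71, adjusted p = 0.02783).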

How the data were processed

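Per the labels, RNA was sequenced from 177 libraries. The deposited table gives the authors' mean TPM for each of 57 groups. DRAGEN is the tool listed per the submitters' processing notes, and its version is not given in the sources used here, nor are the genome build and annotation. Repeated rows (795 of 34924) were dropped. The 8 deposited columns recorded as signal hold the same mean TPM by the authors, and only the repeats lift their sums (1009075 to 1022382 over all columns; 1000000 over unique genes). In 3 root groups (7 d iron excess, 2 d and 7 d zinc excess) the value steps fit another number of libraries than labelled. Some plants (17 in root, 3 in leaf) were sampled at 2 times, 15 of the root plants at 1 h and 21 d.

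Log2(mean TPM + 1), which understates changes of low genes, was fitted in R 4.3.3 with limma 3.58.1, using its trend option, over all genes with a mean of at least 1 TPM in the tissue, all treatments after 0 h, and time and treatment as additive terms. P-values were Benjamini-Hochberg adjusted over all genes, threshold 0.05. Root and leaf of control plants were compared in a fit with time as a block. The fit was tested on simulated data. Figures used Python 3.11.15, numpy 2.4.6, pandas 2.3.3 and matplotlib 3.10.9.

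Named are the 12 largest called members per comparison with at least 5 TPM, the 5 most abundant per tissue, the 3 largest differences per treatment and tissue among members higher, or lower, at all times but at most 1, and the most abundant of each class; other genes were named after their values were seen. Members and lists were chosen with earlier results of these data known. Alternatives were another pseudocount, no filter, rescaled columns, no trend, 1 treatment with control alone, leaving out times and, over late times, another boundary.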

Additional observations from a re-analysis of the deposited data

Results flagged for a closer look

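The effect of iron limitation in leaf differed between late (7, 14 and 21 d) and early times for 3 of 59 tested members. By a test of the difference itself, Sobic.001G011600 had a late minus early log2 value of −1.03 and Sobic.003G187100 one of 1.37. Sobic.008G068800, of transposon or DNA-binding description, had one of 1.39. Over all genes, 2.98 percent had a higher and 0.544 percent a lower late effect. So few calls do not set the members apart from all genes. With the boundary between 7 and 14 d 0 members were called. The effect of zinc excess differed between root and leaf for 3 tau genes, again by a direct test, with root minus leaf values of 2.94 for Sobic.003G426300, 2.50 for Sobic.001G317000 and 1.93 for Sobic.003G426400. Over all genes, 0.2 percent were higher, and without 2 d 0 members were called.

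For Sobic.007G022200 the gap between 1 time and the nearest other, divided by the range over times, passed Dixon's critical value. Its zinc excess minus control difference in root was −0.45 at 1 h, when it had 18.4 TPM in zinc excess roots and 25.5 TPM in control roots, and positive at the other 5 times. It was the only such case among 31 called effects examined, and chance alone gives about 1 in 20.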

How the results depend on the processing

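No paired analysis was possible because only group means were deposited, so that replicate numbers could enter no fit (time was a term of each). The 72 called values were recomputed in 612 alternatives: 491 calls held, 121 were lost and 0 changed sign. The values were picked as called in these same data, so an unchanged sign is no separate evidence. The 24 members raised by zinc excess in root became 0 with zinc excess and control columns alone and 1 without 2 d and 4 d, and 10 to 28 with 1 time left out; without 2 d, 10 of the 24 remained, and without 14 d, 12 of the 13 called were among the 24. The 19 late ones became 11 with a pseudocount of 0.1. The 21 members higher in zinc excess than in iron excess roots became 0 without 2 d and 4 d, an alternative chosen after seeing the data. The 7 called in iron limitation leaves became 0 with no filter, 0 with iron limitation and control alone, and 0 to 11 with 1 time left out (0 without 7, 14 or 21 d). The 24 late ones became 15 after rescaling and 10 with the boundary between 7 and 14 d, and with that boundary the 3 late minus early calls became 0. The 3 root minus leaf effects of zinc excess became 15 with no filter, 7 after rescaling and 0 to 7 with 1 time left out (0 without 2 d); those of iron limitation, 0, became 0 to 2. Sobic.001G318200 under zinc limitation in leaf had a difference of 0.86, which ranged from −0.36 (without 21 d) to 1.18 with 1 time left out. The cause of these shifts was not tested. Depth is unknown, so what it limits could not be stated.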
